A study of Mus musculus with 8 samples.

Results

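Neuregulins are growth factors that act through an EGF-like domain, and most of them are made as membrane-bound precursors that proteases cut. Neuregulins bind the receptor tyrosine kinases Erbb3 and Erbb4, whereas Egfr binds other ligands of the EGF family, and Erbb2 has no known ligand of its own and serves as a partner for the other receptors. Erbb4 is known in the cortex for its place in parvalbumin interneurons, Erbb3 for its place in myelinating glia, and Egfr for its place in dividing progenitors of the adult forebrain.

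The genes described here are the 4 neuregulins (Nrg1, Nrg2, Nrg3 and Nrg4) and the 4 ErbB receptors (Egfr, Erbb2, Erbb3 and Erbb4), all 8 of which were found by symbol among the 31053 genes of the count matrices. They were measured by droplet single-cell RNA sequencing of 2 brain regions, prefrontal cortex (PFC) and striatum, from male C57BL/6N mice, aged 8 to 10 weeks per the labels, while the study's methods give an older age for the mice used for single cells. Labels of the striatal libraries name the nucleus accumbens, while the design text names dorsal and ventral striatum. In each tissue there were 2 libraries of wild-type (WT) mice and 2 of Setd1a+/- mice, with the tissue of 2 mice pooled per library. The Setd1a+/- mice carried a germline frameshift made by CRISPR-Cas9 in exon 15 of Setd1a, a gene for a histone methyltransferase, so every cell carried the mutation. The study asked how this heterozygosity changes transcription in each cell type, and the comparisons below ask it for the neuregulin and ErbB genes.

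The 8 libraries held 15154268 to 26277553 UMIs (unique molecules counted at transcript ends), with 1508 to 4361 annotated cells per library and a median of 2302.5 to 3042 UMIs per cell. Between 1 and 24 cell barcodes were shared by any 2 libraries among 28 pairs, at most 0.877% of the smaller library. In the PFC, Setd1a itself was at 8.45 and 11.2 CPM for WT libraries against 5.59 and 9.33 CPM for Setd1a+/- libraries. In the striatum the values were 13.4 and 15.2 CPM against 9.16 and 12.5 CPM. The genotypes overlapped in the PFC and did not overlap in the striatum, and neither difference passed the test (edgeR, log2 fold change -0.39 ± 0.43 and -0.38 ± 0.28 SE, adjusted p = 1.00 for both). Counts at transcript ends do not show whether an mRNA carries the frameshift.

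Levels are given as CPM, the usual depth-scaled unit, in which the UMIs of a gene are taken relative to all UMIs summed over the cells of a group in 1 library, as the mean ± SD of 4 libraries. The cell types are the authors' clusters, which were made from the variable genes of these same cells, so differences between clusters are a description and were not tested. Where the library ranges of 2 groups overlap, their order is not settled. The 4 neuregulins and 4 receptors differed widely in counts: over all annotated cells of both tissues, Erbb4 had 643 UMIs in the PFC and 830 in the striatum, Nrg3 had 858 and 218, Erbb3 286 and 390, Nrg1 276 and 345, Egfr 175 and 300, and Erbb2 50 and 75. Nrg2 had 9 and 25 UMIs, and Nrg4 had 3 in each tissue.

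The markers of each cell type were highest in that type for 24 of 24 markers in the PFC and for 28 of 30 in the striatum. Both exceptions, Gad2 and Slc32a1, concern the striatal group labelled as interneurons and were highest in D1 medium spiny neurons (MSNs). Its 3 inhibitory markers (Gad1, Gad2 and Slc32a1) summed to 1016 to 1393 CPM per library, against 2876 to 4350 CPM in PFC interneurons. They summed to 1107 to 1249 CPM in D1 MSNs and 1016 to 1178 CPM in D2 MSNs. These 3 markers therefore do not tell interneurons from MSNs in the striatum, which also limits the split by inhibitory markers used below. The excitatory marker Slc17a7 lay at 149 to 251 CPM per library in it, against 0.0 to 17.9 CPM in PFC interneurons and 0.4996 to 1.84 CPM in D1 MSNs. Neurod6, another excitatory marker, lay at 80.1 to 121 CPM, against 0.0 to 6.66 and 0.0 to 2.498 CPM. Of the 821 cells of this striatal group, 610 had UMIs of these inhibitory markers alone, 152 of Slc17a7 or Neurod6 alone, 43 of both kinds and 16 of neither, while 276 of 298 PFC interneurons had inhibitory markers alone and none had excitatory markers alone. By its excitatory markers, the striatal group therefore goes against its label in part. Its levels and its tissue test are given below for all its cells and for the cells with inhibitory markers alone. The splits by class marker and the genotype tests use all its cells, those with excitatory markers included.

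Each gene was placed on the genome (GENCODE annotation of GRCm38, the assembly also called mm10). Erbb4 spans chr1:68032186-69108059 on the minus strand, Nrg3 spans chr14:38368952-39473088 on the minus strand and Nrg1 spans chr8:31814551-32884029 on the minus strand, each over 1000 kb of genome. Egfr lies at chr11:16752203-16918158 and Erbb2 at chr11:98412470-98437716, both on the plus strand. Erbb3 lies at chr10:128567523-128589652 and Nrg4 at chr9:55220222-55326844, both on the minus strand. The annotation gives 12 protein-coding transcripts of Nrg1, and 3 each of Erbb4, Nrg3, Egfr and Nrg2, which these counts cannot tell apart.

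The RefSeq promoter windows (GRCm38.p6, 250 bases before to 50 after the annotated start) of Erbb4, Egfr and Nrg3 are shown because Erbb4 and Egfr carried the differences between tissues described below and Nrg3 was the ligand with the most UMIs. Each is printed 5′ to 3′ on the strand of its gene, and capitals mark CG dinucleotides, the sites of CpG methylation, which read the same on both strands. The windows are chr1:69108010-69108309 for Erbb4, chr11:16751953-16752252 for Egfr and chr14:39473039-39473338 for Nrg3.
Erbb4: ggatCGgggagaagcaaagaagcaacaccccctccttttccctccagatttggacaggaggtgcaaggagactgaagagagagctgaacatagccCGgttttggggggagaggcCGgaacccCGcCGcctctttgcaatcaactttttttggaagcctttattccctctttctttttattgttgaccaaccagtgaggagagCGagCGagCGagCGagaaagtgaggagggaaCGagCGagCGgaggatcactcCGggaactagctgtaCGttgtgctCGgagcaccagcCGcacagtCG
Egfr: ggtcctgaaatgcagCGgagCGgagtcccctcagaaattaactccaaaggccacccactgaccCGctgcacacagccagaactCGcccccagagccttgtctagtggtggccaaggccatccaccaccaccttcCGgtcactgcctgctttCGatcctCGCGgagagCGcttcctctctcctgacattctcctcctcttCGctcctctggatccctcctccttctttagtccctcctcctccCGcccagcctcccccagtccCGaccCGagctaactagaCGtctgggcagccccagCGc
Nrg3: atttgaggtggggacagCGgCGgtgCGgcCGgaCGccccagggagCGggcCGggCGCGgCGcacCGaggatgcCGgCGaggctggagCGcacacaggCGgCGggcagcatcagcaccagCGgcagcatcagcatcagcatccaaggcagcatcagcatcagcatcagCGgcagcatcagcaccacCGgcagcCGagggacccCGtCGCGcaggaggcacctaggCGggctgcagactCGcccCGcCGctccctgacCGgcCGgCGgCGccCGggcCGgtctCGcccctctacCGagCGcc
The Nrg3 window held 36 CG dinucleotides, a number that 6.23% of the 32851 mouse windows of this length reach. The Erbb4 window held 17, reached by 31.4%, and the Egfr window held 15, reached by 34.6%, against a median of 7 over all windows. The homeodomain core TAATTA, a palindrome, was in none of the 5 windows available for these genes and in 5.29% of all windows. Which start sites these cells used was not measured.

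Among the receptors, Erbb4 was highest in interneurons of both tissues. In PFC interneurons the WT libraries lay at 303 and 203 CPM and the Setd1a+/- libraries at 193 and 205 CPM, a mean of 226 ± 51.5 CPM (SD, n = 4) from 357 UMIs. All 4 libraries were above every library of the other PFC types. Oligodendrocyte progenitor cells (OPCs) followed at 44.7 ± 9.3 CPM, newly formed oligodendrocytes at 41.0 ± 18.6 CPM and oligodendrocytes at 28.6 ± 7.2 CPM. Newly formed oligodendrocytes overlapped with both other groups, while OPCs (36.5 to 55.5 CPM) lay above oligodendrocytes (19.1 to 35.9 CPM). PFC excitatory neurons, astrocytes and endothelial cells were near 0. At least 1 Erbb4 UMI was found in 51.0% of 298 PFC interneurons (Wilson 95% interval 45.4 to 56.6%, median 5203.5 UMIs per cell) and in 0.577% of 2775 excitatory neurons (0.355 to 0.935%), which were sequenced more deeply (median 6546 UMIs). With each cell thinned to 1000 UMIs, the shares were 18.5% and 0.0%.

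**Figure D1:**
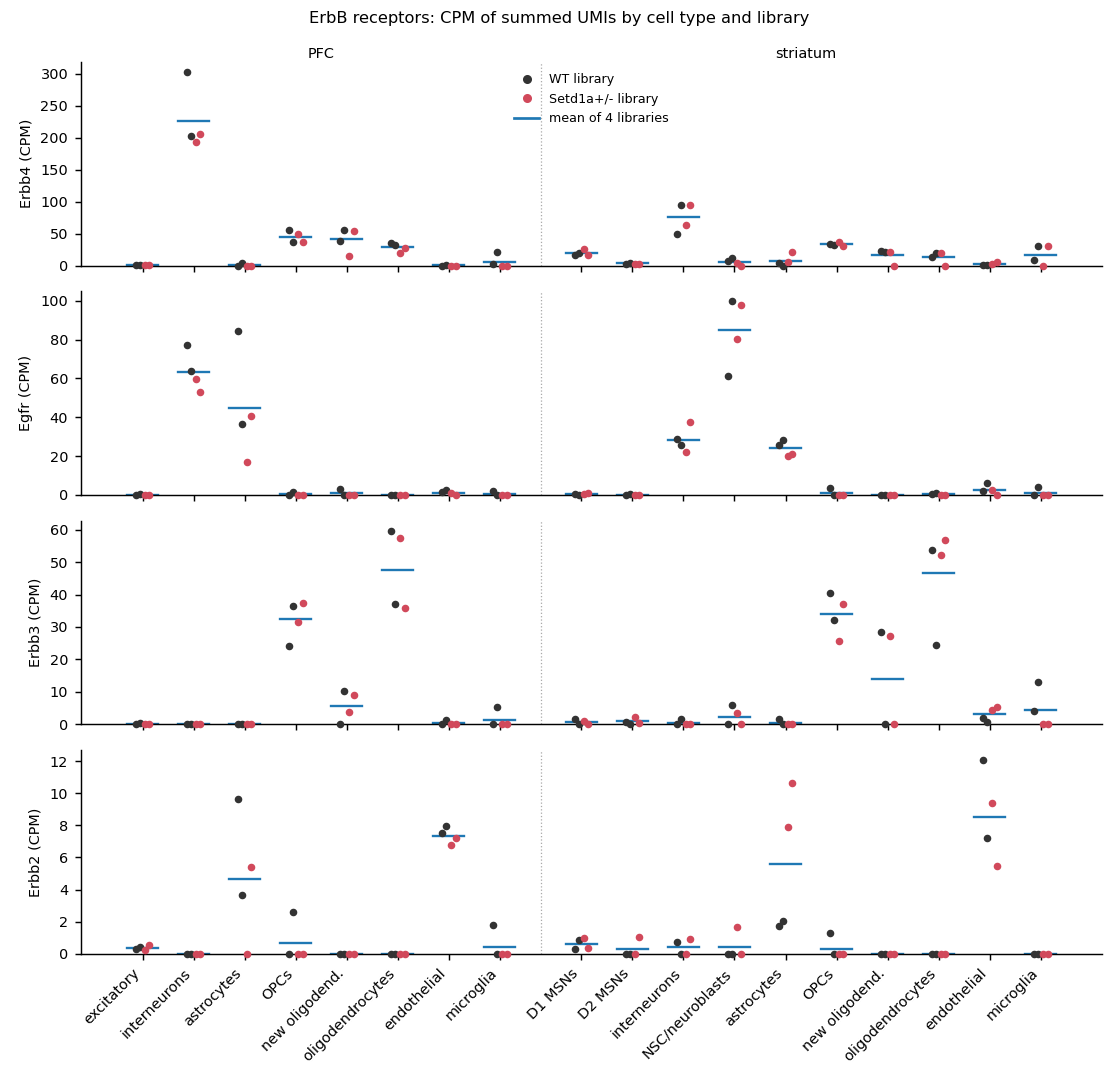
CPM of Erbb4, Egfr, Erbb3 and Erbb2 (vertical axes, linear, separate for each gene) in the 8 PFC and 10 striatal cell types. Points are libraries (black WT, red Setd1a+/-) and blue lines are means of 4 libraries. Erbb4 stands highest in interneurons of both tissues, Egfr in PFC interneurons and in striatal neural stem cells and neuroblasts, Erbb3 in oligodendrocytes and OPCs, and Erbb2 in endothelial cells.

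In the striatum the group labelled as interneurons held 49.99 and 94.6 CPM of Erbb4 in WT and 62.8 and 95.2 CPM in Setd1a+/- libraries, 75.7 ± 22.8 CPM (SD, n = 4), above all libraries of the other striatal types. OPCs followed at 33.3 ± 2.3 CPM, again without overlap with the next groups. The 2 classes of MSN differed: D1 MSNs held 16.5, 19.5, 26.5 and 15.8 CPM (19.5 ± 4.9, 246 UMIs), and D2 MSNs held 2.92, 3.55, 3.12 and 3.12 CPM (3.18 ± 0.26, 28 UMIs). The D1 level was 5.06 to 8.47 times the D2 level within each library. An Erbb4 UMI was found in 5.76% of 3904 D1 MSNs (5.07 to 6.54%) and in 1.14% of 2451 D2 MSNs (0.792 to 1.65%), although D2 MSNs were sequenced slightly more deeply (median 3422 against 3167 UMIs).

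Free RNA was gauged from the barcodes with 1 to 50 UMIs, which were taken to hold no cell. Erbb4 made up 9.88 to 20.2 CPM of those UMIs in the PFC libraries and 18.3 to 30.0 CPM in the striatal libraries. Striatal microglia, at 17.1 ± 15.3 CPM of Erbb4 from 11 UMIs, did not stand above it, and they also held 696 to 1014 CPM of the 3 D1 MSN markers. D1 MSNs overlapped with the empty droplets, and D2 MSNs of the same libraries lay below them in every library. In PFC Setd1a+/- replicate 1, newly formed oligodendrocytes at 15.6 CPM and oligodendrocytes at 19.1 CPM lay below the empty droplets at 20.2 CPM. Both lay above them in the other PFC libraries. The part of free RNA in the levels of microglia, D1 MSNs and these PFC glia was not tested.

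Interneurons were split by their class marker (Pvalb, Sst, Vip, Lamp5 or Chat, at least 2 UMIs and more than of any other class marker). In the PFC, an Erbb4 UMI was found in 15 of 15 Pvalb cells (Wilson interval 79.6 to 100%), in 75.0% of 88 Lamp5 cells, in 40.7% of 54 Vip cells and in 23.5% of 98 Sst cells. Pooled over libraries, Pvalb cells held 488 CPM, Lamp5 cells 265 CPM, Vip cells 251 CPM and Sst cells 81.8 CPM. Vip cells were shallower (median 3473 UMIs) than Pvalb, Lamp5 and Sst cells (6669, 6002 and 6115.5 UMIs), and the share in Sst cells lay below those of Pvalb and Lamp5 cells at like depth. In the striatum, 90.9% of 33 Pvalb cells (76.4 to 96.9%) held an Erbb4 UMI at a pooled 438 CPM, against 54.5% of 11 Vip cells at 255 CPM, 31.0% of 29 Lamp5 cells at 97.8 CPM, 25.0% of 12 Chat cells at 46.4 CPM and 11.3% of 106 Sst cells at 21.6 CPM. Among the classes named, the pooled level was highest in Pvalb cells and lowest in Sst cells in both tissues. This order leaves out the cells with no class, 43 in the PFC and 630 of 821 in the striatum. It therefore does not show where most Erbb4 UMIs of the striatal group lay.

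Egfr differed between the same classes. In the PFC, 52.3% of the 88 Lamp5 cells (42.0 to 62.4%) and 29.6% of the 54 Vip cells (19.1 to 42.8%) held an Egfr UMI, at 135 and 102 CPM pooled. No Egfr UMI was found in 98 Sst cells, which allows a share of up to 3.06% of cells with a UMI and a level of up to 5.01 CPM, or in 15 Pvalb cells, for which the Wilson interval reaches 20.4% and the level allowed is 28.7 CPM. In the striatum Egfr was highest in Pvalb cells, found in 60.6% of 33 cells (43.7 to 75.3%) at 105 to 230 CPM per library and 173 CPM pooled. The 630 striatal cells with no class held more Egfr UMIs in all (85 against 36), in 9.84% of cells (7.75 to 12.4%) at 19.9 to 28.2 CPM per library and 26.2 CPM pooled. Of 11 striatal Vip cells 2 held 1 UMI each, Lamp5 cells held 24.5 CPM pooled from 4 UMIs, and none was found in 106 Sst or 12 Chat cells. With 1 UMI of the class marker enough, 3 of 156 striatal Sst cells held an Egfr UMI, and the shares of striatal Pvalb cells were 78.4% of 51 for Erbb4 and 56.9% for Egfr. These limits and intervals cover counting error only.

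**Figure D2:**
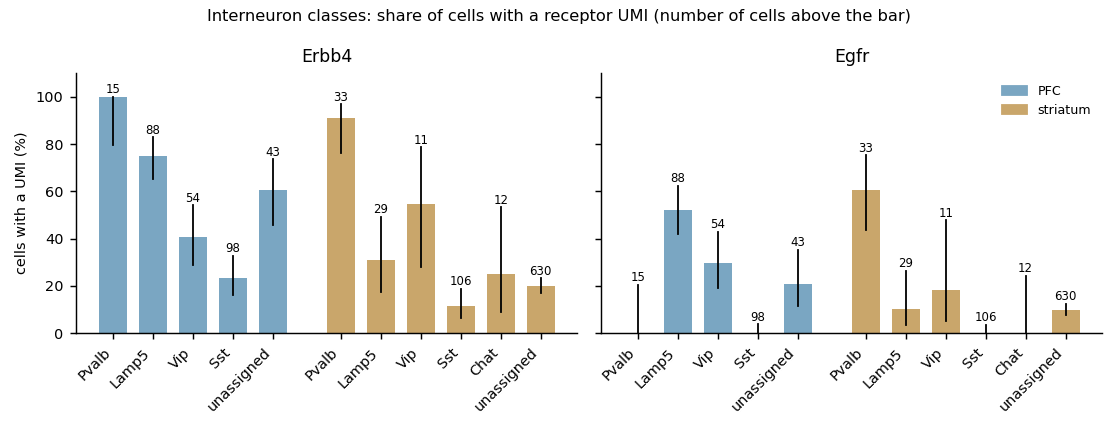
Share of interneurons with at least 1 UMI of Erbb4 (left) or Egfr (right), in percent of cells, by marker class in PFC (blue) and striatum (brown). Bars are shares, vertical lines are Wilson 95% intervals and the numbers above them are cells; Erbb4 reached 100% in PFC and 90.9% in striatal Pvalb cells, and Egfr was seen in 52.3% of PFC Lamp5 and 60.6% of striatal Pvalb cells.

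Across all PFC interneurons, Egfr lay at 77.2 and 63.7 CPM in WT libraries and 59.9 and 53.0 CPM in Setd1a+/- libraries, 63.4 ± 10.2 CPM (SD, n = 4). PFC astrocytes followed at 44.7 ± 28.4 CPM, a group that overlapped with interneurons and in which the libraries spread from 17.1 to 84.5 CPM. No other PFC type exceeded a mean of 1.23 CPM. Of the 298 PFC interneurons, 54 held UMIs of both Erbb4 and Egfr, 98 of Erbb4 alone, 17 of Egfr alone and 129 of neither, at median depths of 6227, 5531.5, 3624 and 4290 UMIs.

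In the striatum Egfr was highest in the group of neural stem cells and neuroblasts, at 61.1 and 99.8 CPM in WT libraries and 80.2 and 97.8 CPM in Setd1a+/- libraries, 84.7 ± 18.1 CPM (SD, n = 4). All 4 libraries were above the interneuron group at 28.5 ± 6.7 CPM and the astrocytes at 23.9 ± 3.9 CPM. Of the 437 cells of that group, 307 held a UMI of the proliferation genes Mki67 or Top2a, and these cells had Egfr at 84.3 CPM pooled and in 17.3% of cells (13.4 to 21.9%). The 114 cells that had neither these UMIs nor 2 of Dcx, a neuroblast gene, held 69.7 CPM in 10.5% of cells (6.1 to 17.5%), at a lower depth (median 1998 against 2834 UMIs). The 16 Dcx cells held 1 Egfr UMI.

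Erbb3, the neuregulin receptor with a weak kinase, was found in the oligodendrocyte lineage. Oligodendrocytes held 59.7, 36.9, 57.4 and 35.7 CPM in the PFC (47.4 ± 12.9) and 53.7, 24.5, 52.2 and 56.7 CPM in the striatum (46.8 ± 14.9), in the order WT 1, WT 2, Setd1a+/- 1 and Setd1a+/- 2. OPCs held 32.4 ± 6.2 CPM and 33.9 ± 6.4 CPM, and their libraries overlapped with those of oligodendrocytes in both tissues. Newly formed oligodendrocytes had means of 5.77 ± 4.7 CPM in the PFC from 4 UMIs and 13.9 ± 16.1 CPM in the striatum from 10 UMIs. In the striatum their libraries, from 0.0 to 28.4 CPM, overlapped with those of OPCs and oligodendrocytes. In the PFC their highest library, at 10.2 CPM, was below the lowest OPC and oligodendrocyte libraries, at 24.0 and 35.7 CPM, whereas Erbb4 in the same cells overlapped with OPCs and oligodendrocytes. No Erbb3 UMI was found in 298 PFC interneurons, which allows a share of up to 1.01% of cells with a UMI at this depth.

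Erbb2 was sparse and was highest in endothelial cells, at 7.37 ± 0.50 CPM in the PFC and 8.54 ± 2.9 CPM in the striatum (33 and 51 UMIs). Astrocytes followed at 4.69 ± 4.0 and 5.56 ± 4.4 CPM from 7 and 10 UMIs, and overlapped with endothelial cells in both tissues. No other type exceeded a mean of 0.652 CPM. A UMI was found in 2.11% of PFC (1.51 to 2.95%) and 2.50% of striatal endothelial cells (1.90 to 3.28%), against 0.0% of 1694 PFC and 2345 striatal oligodendrocytes.

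Among the ligands, Nrg3, which binds Erbb4, was highest in PFC excitatory neurons, at 41.3 and 39.6 CPM in WT libraries and 45.5 and 37.5 CPM in Setd1a+/- libraries, 41.0 ± 3.4 CPM (SD, n = 4). PFC interneurons followed at 23.2 ± 11.3 CPM without overlap, then OPCs at 9.54 ± 4.2 CPM, whose libraries overlapped with those of interneurons, and the other PFC types stayed below 2 CPM. Empty droplets of the PFC held 18.0 to 25.8 CPM of Nrg3, below every excitatory neuron library, above every OPC library and around the interneuron mean. A Nrg3 UMI was found in 23.7% of excitatory neurons (22.2 to 25.4%) and in 0.295% of 1694 oligodendrocytes (0.126 to 0.689%), which were shallower (median 2056 UMIs); after thinning to 1000 UMIs the shares were 4.14% and 0.118%. In the striatum the interneuron group held most, 17.7 ± 3.4 CPM, followed without overlap by D1 MSNs at 8.06 ± 2.1 CPM, while microglia held 5.97 ± 7.3 CPM on 3 UMIs and D2 MSNs 1.96 ± 1.4 CPM. The D1 level of Nrg3 was 3.03 to 9.59 times the D2 level within each library, on 103 and 18 UMIs. In the striatal cells with inhibitory markers alone, Nrg3 lay at 7.34 to 16.3 CPM per library, which overlapped with D1 MSNs at 5.88 to 11.0 CPM. Empty droplets of the striatum held 5.14 to 7.20 CPM, a range that overlapped with D1 MSNs and lay above the D2 MSN mean. The part of free RNA in these levels was not tested.

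**Figure D3:**
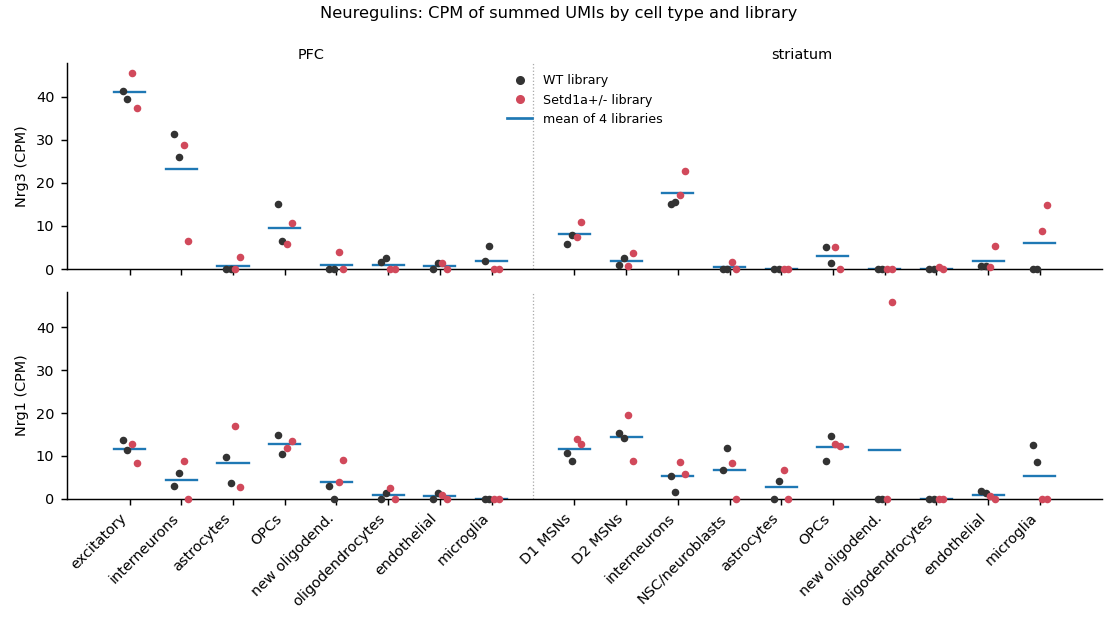
CPM of Nrg3 and Nrg1 (vertical axes, linear) in the 8 PFC and 10 striatal cell types. Points are libraries (black WT, red Setd1a+/-) and blue lines are means of 4 libraries; Nrg3 is highest in PFC excitatory neurons at 41.0 CPM, and the Nrg1 point at 45.9 CPM in striatal newly formed oligodendrocytes rests on 2 UMIs.

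Within the PFC excitatory neurons, the 7 subtypes held Nrg3 at means from 28.5 CPM in SL-Myh7 to 66.8 CPM in DL-Pou3f1 neurons, with DL-Etv1 at 46.9 ± 5.9, DL-Nnat at 45.9 ± 8.2 and DL-Tshz2 at 42.3 ± 5.9 CPM, DL denoting deep and SL superficial layers. DL-Pou3f1 comprised 62 cells, and its libraries ran from 35.6 to 100.7 CPM on 25 UMIs. Nrg1 means ran from 3.82 ± 3.6 CPM in DL-Tshz2 (6 UMIs) to 19.5 ± 7.8 CPM in DL-Foxp2 (87 UMIs) and 22.7 ± 10.9 CPM in DL-Pou3f1 neurons (10 UMIs). All DL-Foxp2 libraries, at 31.1, 14.7, 16.7 and 15.4 CPM, were above all DL-Tshz2 libraries. Of the 7 subtype markers, 5 were highest in the subtype they name, Foxp2 and Tshz2 among them. Etv1 had a mean of 233 CPM in DL-Etv1 but was highest in DL-Tshz2 neurons. Cux2 had a mean of 113 CPM in SL-Cux2 but was highest in SL-Myh7 neurons. Etv1 and Cux2 therefore do not single out the subtypes they name.

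Nrg1, which binds Erbb3 and Erbb4, was spread over more cell types than Nrg3. In the PFC, OPCs at 12.7 ± 2.0 CPM and excitatory neurons at 11.6 ± 2.4 CPM overlapped, and so did D2 MSNs at 14.5 ± 4.4 CPM, OPCs at 12.2 ± 2.4 CPM and D1 MSNs at 11.5 ± 2.4 CPM in the striatum. The level in D1 MSNs was 0.612 to 1.45 times that in D2 MSNs, so Nrg1 did not separate these neurons in the way Nrg3 and Erbb4 did. In 1694 PFC and 2345 striatal oligodendrocytes, 3 and 0 cells held a Nrg1 UMI. Empty droplets held 2.34 to 9.83 CPM of Nrg1 in the PFC and 4.35 to 9.45 CPM in the striatum. These ranges bracket the 5.31 ± 2.9 CPM of the striatal interneuron group and overlap with the libraries of D1 MSNs (8.69 to 14.0 CPM), D2 MSNs (8.84 to 19.5 CPM), striatal OPCs (8.88 to 14.6 CPM) and PFC excitatory neurons (8.23 to 13.8 CPM). Within the same library (WT 1, WT 2, Setd1a+/- 1, Setd1a+/- 2), PFC excitatory neurons held 13.8, 11.4, 12.8 and 8.23 CPM. Their empty droplets held 2.34, 4.85, 9.83 and 3.49 CPM, less in every library. D2 MSNs likewise held 15.4, 14.2, 19.5 and 8.84 CPM against 9.45, 9.13, 4.35 and 7.51 CPM. D1 MSNs lay below the empty droplets in WT replicate 2 (8.69 against 9.13 CPM) and above them in the other libraries. The part of free RNA in the Nrg1 levels was not tested. Nrg2 did not exceed a mean of 1.28 CPM and Nrg4 did not exceed 0.429 CPM in any cell type, and neither passed the filter on low counts in any cell type. Nrg2 lies at chr18:36017652-36197380 on the minus strand of GRCm38.

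In the striatal group labelled as interneurons, nearly all Erbb4 and Egfr UMIs lay in the cells with inhibitory markers alone, and Nrg1 and Nrg3 were found in cells of either kind. The 610 cells with inhibitory markers alone carried 330 of its 333 Erbb4 UMIs and 126 of its 127 Egfr UMIs, at 80.7 to 148 CPM of Erbb4 and 29.3 to 59.9 CPM of Egfr per library. The 152 cells with excitatory markers alone were deeper (median 6867 against 4412 UMIs) and held 1 Erbb4 and 0 Egfr UMIs. They held Nrg3 at 23.7 CPM and Nrg1 at 10.6 CPM as means of 4 libraries, against 13.05 and 2.04 CPM in the cells with inhibitory markers alone. The library ranges overlapped for Nrg3 (7.69 to 43.3 against 7.34 to 16.3 CPM) and for Nrg1 (0.0 to 23.3 against 0.0 to 4.89 CPM). These cells were grouped by other genes after the values were seen, and the difference was not tested.

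Cell types found in both tissues were compared over the 8 libraries by edgeR's quasi-likelihood test, with genotype as a covariate. A call needed an adjusted p under 0.05 and a 1.5-fold change, and 7.49% of all 49915 tests were called. Among the members, 9 tests passed the filter on low counts and 3 were called, all lower in the striatum, with 4 at an unadjusted p under 0.05 against 21.2% of all tests. Tissue goes together with dissection and with a longer digestion of the striatum, which cannot be told apart from it. Erbb4 in interneurons was 1.54 ± 0.23 (SE) lower on the log2 scale (adjusted p = 0.000241), a group in which 5.9% of genes were called lower in the striatum. Its PFC libraries, from 193 to 303 CPM, did not overlap with the striatal ones, from 49.99 to 95.2 CPM. Egfr in interneurons was 1.12 ± 0.23 lower (adjusted p = 0.00355), at 53.0 to 77.2 CPM against 22.2 to 37.7 CPM, again without overlap.

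Both differences were smaller in the cells with inhibitory markers alone. There Erbb4 averaged 227 CPM in the PFC and 111 CPM in the striatum, without overlap, and the same edgeR test, added after the data were seen, called it lower by 0.96 ± 0.23 (SE) on the log2 scale (adjusted p = 0.0114), where 6.03% of 7565 genes were called lower. Egfr averaged 64.7 and 42.6 CPM and overlapped, with a log2 difference of -0.56 ± 0.25 that was not called (edgeR, adjusted p = 0.180). Nrg3 in these cells averaged 24.7 and 13.05 CPM and overlapped, with a log2 difference of -0.93 ± 0.41 that was not called either (edgeR, adjusted p = 0.177), beside -0.43 ± 0.35 over all annotated interneurons. The two-sided exact permutation test over the 8 libraries gave p = 0.0286 for Erbb4, the smallest this design allows, and p = 0.0571 for Egfr (0.05 and 0.0667 adjusted over 7 such comparisons). Classes also made up different shares of the groups: 33 of 821 striatal and 15 of 298 PFC interneurons were Pvalb cells, 29 and 88 were Lamp5 cells, 106 and 98 were Sst cells, and 630 and 43 had no class. The comparisons within classes were also added after the data were seen. They drew on all annotated interneurons, cells with excitatory markers included, and were not repeated in the cells with inhibitory markers alone. Vip cells, at like pooled levels of Erbb4 in both tissues and only 11 cells in the striatum, were not compared. Nor was Egfr in Sst cells, which held no Egfr UMI in either tissue. The 7 comparisons were thus chosen with their values known, and their sets share cells. Their exact and adjusted p-values are therefore a description and do not account for this choice. Within Sst cells, Erbb4 averaged 87.9 CPM in the PFC and 22.7 CPM in the striatum, and within Lamp5 cells 266 and 90.5 CPM, each without overlap (exact permutation, p = 0.0286 and adjusted 0.05 for both, at the threshold and not below it). Of all genes with at least 20 UMIs in the class, 9.35% in Sst cells and 5.41% in Lamp5 cells were lower in the striatum without overlap. The striatal Sst libraries, at 11.7 to 39.6 CPM of Erbb4, did not stand above the 18.3 to 30.0 CPM of the striatal empty droplets. Egfr in Lamp5 cells averaged 135 and 20.1 CPM, also without overlap (exact permutation, p = 0.0286, adjusted 0.05), but on 4 striatal UMIs. Pvalb cells, found in 3 PFC and 4 striatal libraries, ran the other way for Egfr, with no UMI in any of the 3 PFC libraries against 105 to 230 CPM in the striatum. Pooled, the striatal level was at least 6.04-fold higher than the level that 3 UMIs over the PFC cells would give (exact permutation, p = 0.0571, the smallest that 3 against 4 libraries allow, adjusted 0.0667), and 8.00% of 2912 genes were higher in striatal Pvalb cells without overlap. Erbb4 in Pvalb cells averaged 489 and 412 CPM and overlapped (log2 difference -0.25, exact permutation, p = 0.286, adjusted 0.286). Empty droplets held 3.60 to 10.4 CPM of Egfr in the striatum and 2.08 to 6.09 CPM in the PFC, on 39 and 29 UMIs. They held 18.3 to 30.0 and 9.88 to 20.2 CPM of Erbb4. The ranges of the tissues overlapped for both genes. The part of free RNA in the differences between tissues was not tested.

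**Figure D4:**
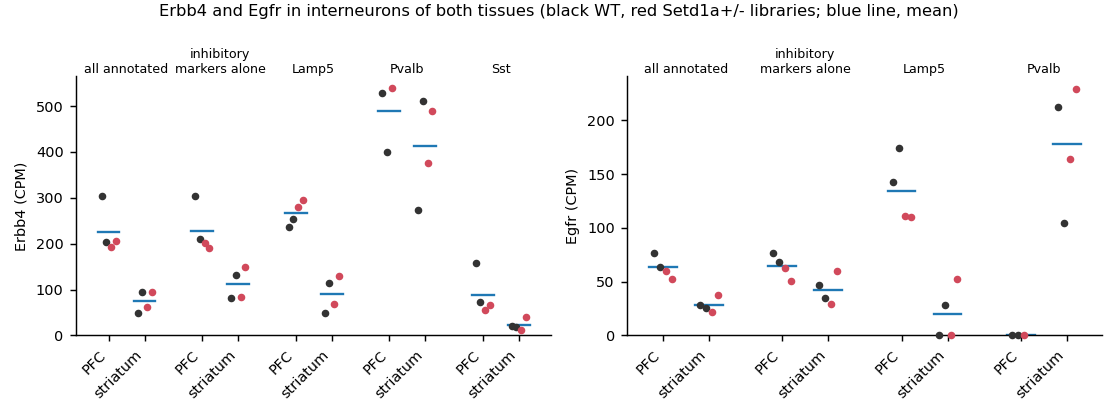
CPM of Erbb4 (left) and Egfr (right) in PFC and striatal interneurons, for all annotated cells, for cells with inhibitory markers alone, for Lamp5 and Pvalb cells and, for Erbb4, for Sst cells. Points are libraries (black WT, red Setd1a+/-) and blue lines are means of the 4 libraries, or of 3 for PFC Pvalb cells. Erbb4 overlaps between tissues in Pvalb cells and in none of the other 4 sets, and these sets share cells. Egfr overlaps in the cells with inhibitory markers alone and is higher in the striatum in Pvalb cells. Vip cells were not compared.

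The third call was Egfr in astrocytes, lower in the striatum by 1.09 ± 0.35 on the log2 scale (adjusted p = 0.0491), where 3.6% of genes were called lower. Its libraries overlapped, at 17.1 to 84.5 CPM in the PFC and 20.3 to 28.5 CPM in the striatum, and without PFC WT replicate 1 the difference was -0.69 and was not called (adjusted p = 0.376). The call was also lost without any of 4 other single libraries (edgeR, adjusted p = 0.0547 to 0.145, log2 differences of -1.003 to -1.25). It was lost by DESeq2 (-1.05, adjusted p = 0.145) and with library size alone as the scaling (edgeR, -1.004, adjusted p = 0.0700). With PFC and striatal libraries of the same genotype and replicate number paired as a block, it was lost too (edgeR, -0.98, adjusted p = 0.114). Striatal astrocytes held 52.9 to 387 CPM of the D1 MSN markers, against 0.0 to 3.67 CPM in PFC astrocytes, whose tissue has no annotated MSNs. PFC astrocytes in turn held 0.0 to 47.7 CPM of the 3 excitatory markers, against 1.72 to 10.6 CPM in striatal astrocytes. The part of this neuronal RNA in the Egfr difference was not tested. Erbb4 in oligodendrocytes was 0.76 ± 0.31 lower in the striatum and missed the call (adjusted p = 0.227). Erbb4 and Erbb3 in OPCs, Erbb3 in oligodendrocytes, Erbb2 in endothelial cells and Nrg3 in interneurons were not called, with log2 differences from -0.43 to 0.31.

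The genotypes were compared within each cell type by the same test, which for the PFC needed a 1.5-fold and for the striatum a 2-fold change, the study's own limits. None of the members was called. In the PFC cell types 11 member tests gave 0 calls, with 0 at an unadjusted p under 0.05 and 0 calls by DESeq2, while edgeR called 0.0% of all 51145 tests and found 1.7% at an unadjusted p under 0.05. In the PFC excitatory subtypes 7 member tests gave 0 calls, 0 at an unadjusted p under 0.05 and 0 by DESeq2, against 0.0% of 44783 tests called and 1.6% at an unadjusted p under 0.05. In the striatal cell types 14 member tests gave 0 calls, 0 at an unadjusted p under 0.05 and 0 by DESeq2, against 0.00544% of 73479 tests called and 2.62% at an unadjusted p under 0.05. The median log2 fold change of the member tests was -0.29, 0.07 and 0.21 in these 3 comparisons, against 0.00 over all genes in each. DL-Pou3f1 neurons had 7 cells in the smallest library and were not tested.

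The members in the groups where they were highest among those tested show the precision of this comparison. In PFC interneurons Erbb4 averaged 253 CPM in WT libraries and 199 CPM in Setd1a+/- libraries (log2 fold change -0.32 ± 0.28 SE), and Egfr averaged 70.4 and 56.4 CPM (-0.29 ± 0.33). Nrg3 and Nrg1 in PFC excitatory neurons changed by 0.05 ± 0.19 and -0.24 ± 0.29, and Erbb3 in PFC oligodendrocytes by -0.01 ± 0.36. In the striatum, Erbb4 and Nrg3 in the interneuron group differed by 0.20 ± 0.29 and 0.44 ± 0.37, and Egfr in neural stem cells and neuroblasts by 0.18 ± 0.36. Erbb3 in oligodendrocytes differed by 0.42 ± 0.33, Erbb2 in endothelial cells by -0.21 ± 0.50 and Nrg1 in D2 MSNs by -0.09 ± 0.37. The lowest adjusted p over these and all other genotype tests of members was 0.937 (edgeR), and their SEs ran from 0.19 to 0.75. Changes of that size were not detectable with 2 libraries per genotype at this depth. A larger difference, -0.88 ± 0.55 for Egfr in PFC astrocytes, was not called either. The test does not show that the genotypes were alike.

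**Figure D5:**
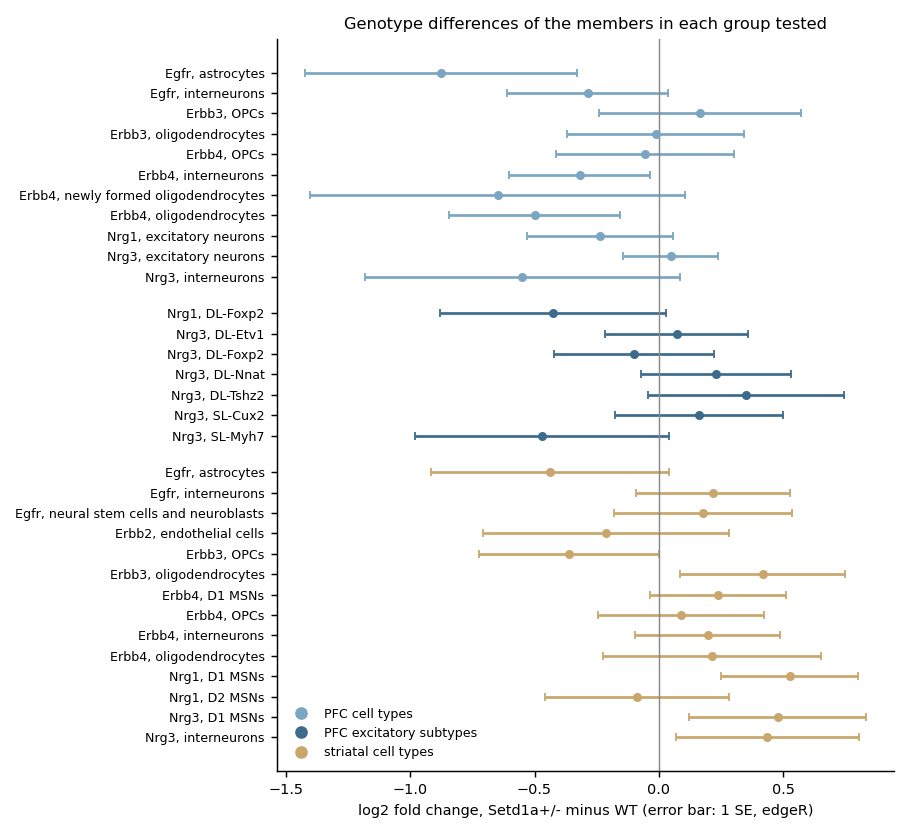
Log2 fold change, Setd1a+/- minus WT, of each member in each group where it was tested, with bars of 1 SE from edgeR. The 32 values fall on both sides of 0, from -0.88 for Egfr in PFC astrocytes to 0.53 for Nrg1 in D1 MSNs, and none was called.

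Genotypes did not overlap in CPM for 2 of 11, 2 of 7 and 3 of 14 member tests in the PFC types, PFC subtypes and striatal types, where 26.4%, 26.7% and 31.0% of all tests did so. Among these was, named after its values were seen, Nrg1 in D1 MSNs, at 10.6 and 8.69 CPM in WT libraries and 14.0 and 12.8 CPM in Setd1a+/- libraries (log2 fold change 0.53 ± 0.28, adjusted p = 1.00), against 9.45 and 9.13 CPM and 4.35 and 7.51 CPM in the empty droplets of the same libraries. The genotype effect was also compared between tissues by an interaction term, and 0 of 9 member tests were called, with 0 at an unadjusted p under 0.05 and 0 calls by DESeq2, against 0.0% of all 49915 tests called and 2.21% at an unadjusted p under 0.05.

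The wider pathway was covered by 53 genes: other ligands of the EGF family, the proteases that release ligands, inhibitors, adaptors, and kinases of the PI3K-AKT and MAPK branches. In the genotype tests 0 of 232, 198 and 321 tests of these genes were called in the PFC types, PFC subtypes and striatal types, with 4, 3 and 4 at an unadjusted p under 0.05. Between tissues 15 of 228 tests were called, 8 higher and 7 lower in the striatum, a share of 6.58% beside the 7.49% of all genes. Their median log2 difference was -0.01, as over all genes. In interneurons, Errfi1, an inhibitor that binds the Egfr kinase, was lower in the striatum at 12.3 to 18.2 against 28.6 to 59.9 CPM (log2 difference -1.38, adjusted p = 0.00361), without overlap. Src, a kinase, and Dlg4, a scaffold of the postsynaptic density that binds Erbb4, were higher there by 1.41 and 0.75 (adjusted p = 0.0400 and 0.0343). The striatal group also held the excitatory marker Slc17a7 at 149 to 251 CPM, against 0.0 to 17.9 CPM in the PFC. In the cells with inhibitory markers alone, Errfi1 was again lower in the striatum (log2 difference -1.42, edgeR, adjusted p = 0.00516), Dlg4 was not called (0.50, adjusted p = 0.197) and Src did not pass the filter.

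In astrocytes, Pik3r1, a regulatory subunit of PI3K, was lower in the striatum at 63.7 to 75.4 against 147 to 208 CPM (log2 difference -1.37, adjusted p = 0.000358), and Akt2 was lower by 0.82 on the log2 scale (adjusted p = 0.0332). Erbin, which binds Erbb2, was lower in striatal oligodendrocytes and microglia (log2 difference -0.76 and -1.70, adjusted p = 0.0451 and 0.0148), and the ligand-releasing protease Adam10 was lower in striatal microglia (-1.003, adjusted p = 0.0318). In endothelial cells Dlg4 and Pik3r2 were higher and Sos1 was lower in the striatum, by 1.86, 1.58 and -0.65 on the log2 scale. Araf, Map2k1 and Dlg4 were higher in striatal microglia, by 1.23, 1.21 and 2.94. Striatal microglia held 696 to 1014 CPM of the 3 D1 MSN markers against 0.0 to 3.55 CPM in PFC microglia, and striatal endothelial cells 76.0 to 406 CPM against 0.0 CPM. Of the 3 excitatory markers, PFC microglia held 10.6 to 58.5 CPM against 0.0 to 4.20 CPM in striatal microglia. PFC endothelial cells held 4.51 to 30.5 CPM of them against 0.0 to 0.604 CPM in striatal endothelial cells. The part of this neuronal RNA in these differences was not tested. Nck1 in astrocytes, Pik3r3 and Sos2 in endothelial cells and Mapk3 in oligodendrocytes reached an unadjusted p under 0.01 but missed the call (edgeR, adjusted p = 0.0522, 0.0895, 0.0899 and 0.0533).

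The genes whose levels were most like those of a member were ranked by Pearson's r of log2(mean CPM + 1) over the 18 cell type and tissue groups, among 12787 genes, as a description. For Erbb4 they were Adarb2 (r = 0.87), Gm45768 and Calb2, all highest in PFC interneurons. For Egfr they were Atf5 (0.85), highest in neural stem cells and neuroblasts, and Ccdc61, highest in PFC interneurons. For Erbb3 they were Sox10 (0.90), Ninj2 and Olig1, genes highest in the oligodendrocyte lineage, and for Erbb2 Hspb8 (0.94), Amot and Angptl4. For Nrg3 they were Clstn2 (0.96) and Vsnl1, and for Nrg1 Bcs1l (0.92), Ndufs4 and Mrpl45. Nrg2 and Nrg4, with 34 and 6 UMIs in all, were matched by Gm36495, Gm15337 and Wnt2 and by Rsph4a, Dynlrb2 and Gm867, on too few counts to order groups. The 18 groups share libraries and differ in depth.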

How the data were processed

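Single cells of PFC and striatum, 4 libraries each, were analysed from the deposited UMI counts per gene and barcode, which the authors made with Cell Ranger 3.0.2 on mm10 per the processing notes (Seurat 3.2.0 is also named), together with the authors' cell annotation. Cells entered the authors' annotation from 800 genes upward and below a mitochondrial share of 10%; no doublet caller was run here, and doublet handling is not given in the sources used here. The deposited expression tables of normalised values and the per-cell totals were not used for levels.

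UMI counts of annotated cells were summed per library and group, and groups with at least 10 cells in every library were tested with edgeR 4.0.16 (R 4.3.3; TMM, filterByExpr with a minimum count of 10, quasi-likelihood test, Benjamini-Hochberg over all genes within a group, adjusted p under 0.05). The study tested single cells; here libraries were the replicates. Since 2 mice were pooled per library, p-values measure the spread between pools. Alternatives were DESeq2 1.42.0, other scalings, no filter, each library left out, a replicate block and, added after the data were seen, the tissue test in interneurons with inhibitory markers alone. Each biological replicate held 1 WT and 1 Setd1a+/- library per the study's methods. Same-numbered libraries were therefore paired in the replicate block, while the main tests and their SEs were unpaired. Deviations of same-numbered libraries from the group means correlated at 0.118 to 0.595 in PFC types, 0.383 to 0.495 in PFC subtypes and 0.0940 to 0.390 in striatal types. Between tissues the block paired PFC and striatal libraries of the same genotype and number, a pairing that the study's methods do not state. Shares of cells have Wilson 95% intervals, and a count of 0 was given a limit of 3 UMIs or cells. Scripts were tested on simulated data. Python 3.11.15, scipy 1.17.1 and pandas 2.3.3 were used.

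The members and all lists were chosen with earlier results of these data known. Genotype values are named for each member in the tested group of its highest level per tissue and wherever an unadjusted p was under 0.05, pathway genes where called or at an unadjusted p under 0.01, and the 3 most alike genes per member among those with at least 200 UMIs. A few genes that meet these rules are not reported here.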

Additional observations from a re-analysis of the deposited data

How the results depend on the processing

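The counts of called members stayed at 0 in the genotype and interaction tests under every alternative run, and between tissues the count of 3 fell to 2 in 8 of 13 alternatives. With the replicate block the counts were 0 in PFC types, 0 in PFC subtypes, 0 in striatal types, 2 between tissues and 0 for the interaction. The block changed no other call than Egfr in astrocytes. That call was lost under those 8 alternatives, and the cause was not tested. In the cells with inhibitory markers alone, Egfr was not called by the same edgeR test (-0.56) and Erbb4 was. In Pvalb cells alone the direction of Egfr was reversed (log2 difference of at least 2.595), and the cause was not tested. Without mitochondrial and ribosomal protein genes, Nrg3 in PFC excitatory neurons was 45.3 CPM and Erbb2 in PFC endothelial cells 8.53 CPM. Thinning to 1000 UMIs moved 15 of 16 shares. Nrg2 and Nrg4 passed the filter on low counts in no cell type, and none of their tests without the filter was called.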

Other observations

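Receptors were also counted together in single cells. Of 1694 PFC oligodendrocytes, 17 held UMIs of both Erbb3 and Erbb4, 165 of Erbb3 alone and 95 of Erbb4 alone, and the cells with both were deeper (median 4565 UMIs) than those with either alone (2461 and 2328 UMIs). In the striatum the counts were 13, 219 and 77. There Erbb4 in oligodendrocytes, at 0.0 to 20.1 CPM per library, did not stand above the 18.3 to 30.0 CPM of the empty droplets. The part of free RNA in these counts was not tested. Among PFC excitatory neurons 60 held both Nrg1 and Nrg3, 138 Nrg1 alone, 599 Nrg3 alone and 1978 neither.

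Over all striatal cells Erbb3 lay at 11.9 and 14.8 CPM in the replicate 1 libraries and at 4.29 and 2.75 CPM in the replicate 2 libraries, which held 817 and 947 against 514 and 67 oligodendrocytes. Within oligodendrocytes the same libraries held 53.7, 52.2, 24.5 and 56.7 CPM.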
